A study of Mus musculus with 15 samples.

Results

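Glycolysis and the hypoxia response were followed through 37 genes chosen for their roles, with earlier results of these data known. They were 15 enzymes of glycolysis, 3 transporters, 4 regulatory kinases and bifunctional enzymes, 3 genes of oxygen sensing and 12 targets of the hypoxia response. A gene counted as measured when its Ensembl identifier had a row in the gene tables, and 36 of the 37 did, among 13501 genes in the OE and EV table and 13669 in the KD and shScr table. Adm had no row in the tables used here. The RNA came from 6DT1 cells, a mouse mammary cancer line grown as a monolayer on plastic, in 15 libraries from 5 lines with 3 libraries each. OE carried a Myc-tagged Smarcd1 coding sequence and EV the empty vector, and both were kept in blasticidin. KD4 and KD6 each carried a different hairpin against Smarcd1 and shScr a scrambled hairpin, all kept in puromycin, and KD4 and KD6 together form KD (6 libraries). All lines were harvested 24 h after seeding at 70% confluence, and replicates were separate passages of 1 line. Where each line is its own group, p values therefore measure the spread between passages. With KD as 1 group, the spread also takes in the difference between KD4 and KD6.

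Cells break glucose down to pyruvate through glycolysis, and in tumor cells much of the pyruvate is reduced to lactate and exported. When oxygen is scarce, prolyl hydroxylases stop marking the HIF alpha subunits for degradation, and HIF with its partner Arnt binds the core letters ACGTG or GCGTG near its target genes. Most glycolytic enzymes, the glucose transporter Slc2a1, the lactate transporter Slc16a3 and Pdk1 are known HIF targets, and so these genes are often read together. Pdk1 is a kinase that inhibits pyruvate dehydrogenase and so limits the use of pyruvate in mitochondria. The cells here were grown without a low-oxygen arm, so the values below are levels under the culture conditions of each line.

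Levels are given in CPM, the authors' read counts scaled to the library total, and the listed genes sum to between 894250 and 923092 per library. Reads per library were not given, and with the depth unknown no interval for counting error is printed. Differences are on the log2(CPM + 1) scale, which understates changes of low genes. They were tested with limma, with p values adjusted over all genes, and a gene was called at an adjusted p under 0.05. Smarcd1 was 65.7 ± 4.40 CPM in OE and 29.6 ± 2.37 CPM in EV (SD, n = 3 each, adjusted p = 0.00355), and 9.13 ± 0.121 CPM in KD4 and 15.3 ± 1.01 CPM in shScr (adjusted p = 0.000873). In the libraries labelled KD6 it was 14.4 ± 1.03 CPM, against the same shScr level (log2 change -0.09, 95% interval -0.28 to 0.10, adjusted p = 0.701). With KD4 and KD6 as 1 group, Smarcd1 was 11.7 ± 2.93 CPM in KD and overlapped shScr, and it was not called (n = 6 and 3, log2 change -0.39, adjusted p = 0.268 in limma). A lower Smarcd1 mRNA was therefore not seen in KD6, KD is a group by its labels, and in these data KD6 is known by its label only. The paper also shows Smarcd1 protein of its hairpin lines by western blot, which was not examined here. The epithelial keratins Krt8 and Krt18 were present, and Epcam, Cdh1 and Krt7 had no row in the tables used here. The sum of Krt8 and Krt18 was 749 to 949 CPM in KD4, 711 to 909 CPM in KD6 and 675 to 747 CPM in shScr, and of 6 fibroblast markers only Pdgfra was listed, at 7.12 to 7.75 CPM in KD4, 4.42 to 5.11 CPM in KD6 and 2.54 to 3.55 CPM in shScr. Pdgfra lay above shScr in both hairpin lines, and the keratin sum did so in KD4 but overlapped shScr in KD6. The part of these markers in the differences below was not tested. In RNA of whole cultures, fewer cells of a type and less RNA per cell cannot be told apart.

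Most members were not called against their control line, and the calls gathered in a few genes. In OE against EV, 0 of 36 members were called, where 0.00741% of all genes were, the 1 gene being Smarcd1, and 4 members had an unadjusted p under 0.05, as did 13% of all genes. In KD against shScr, 2 members were called, where 2.66% of all genes were: Pdk1, higher (1.95% of genes), and Car12, lower (0.71%). Testing the mean of the hairpin lines in a fit of 3 groups called 5 members in place of 2, with Slc16a3, Vegfa and P4ha2 added (adjusted p = 0.000408, 0.0174 and 0.0416). That fit also called more of all genes than the 364 called with KD as 1 group, and its count is given in the last section. The added calls are therefore not read as a result about the members. In KD4 against shScr, 6 members were called, where 9.58% of genes were, 2 of them higher (5.71% of genes) and 4 lower (3.87%). In KD6 against shScr 3 were called, where 2.91% of genes were, 1 higher (2.04%) and 2 lower (0.871%). The median log2 change of the members was -0.03 in OE against EV, 0.03 in KD against shScr, 0.10 in KD4 against shScr and 0.00 in KD6 against shScr, beside 0.01, 0.00, 0.00 and 0.00 for all genes. Groups did not overlap for 6 of 36 members in OE against EV (20% of all genes), for 18 in KD4 against shScr (29.5%) and for 7 in KD6 against shScr (22.2%). KD4 and KD6 share the shScr libraries, so their values are given side by side and not as repeats of each other.

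**Figure D1:**
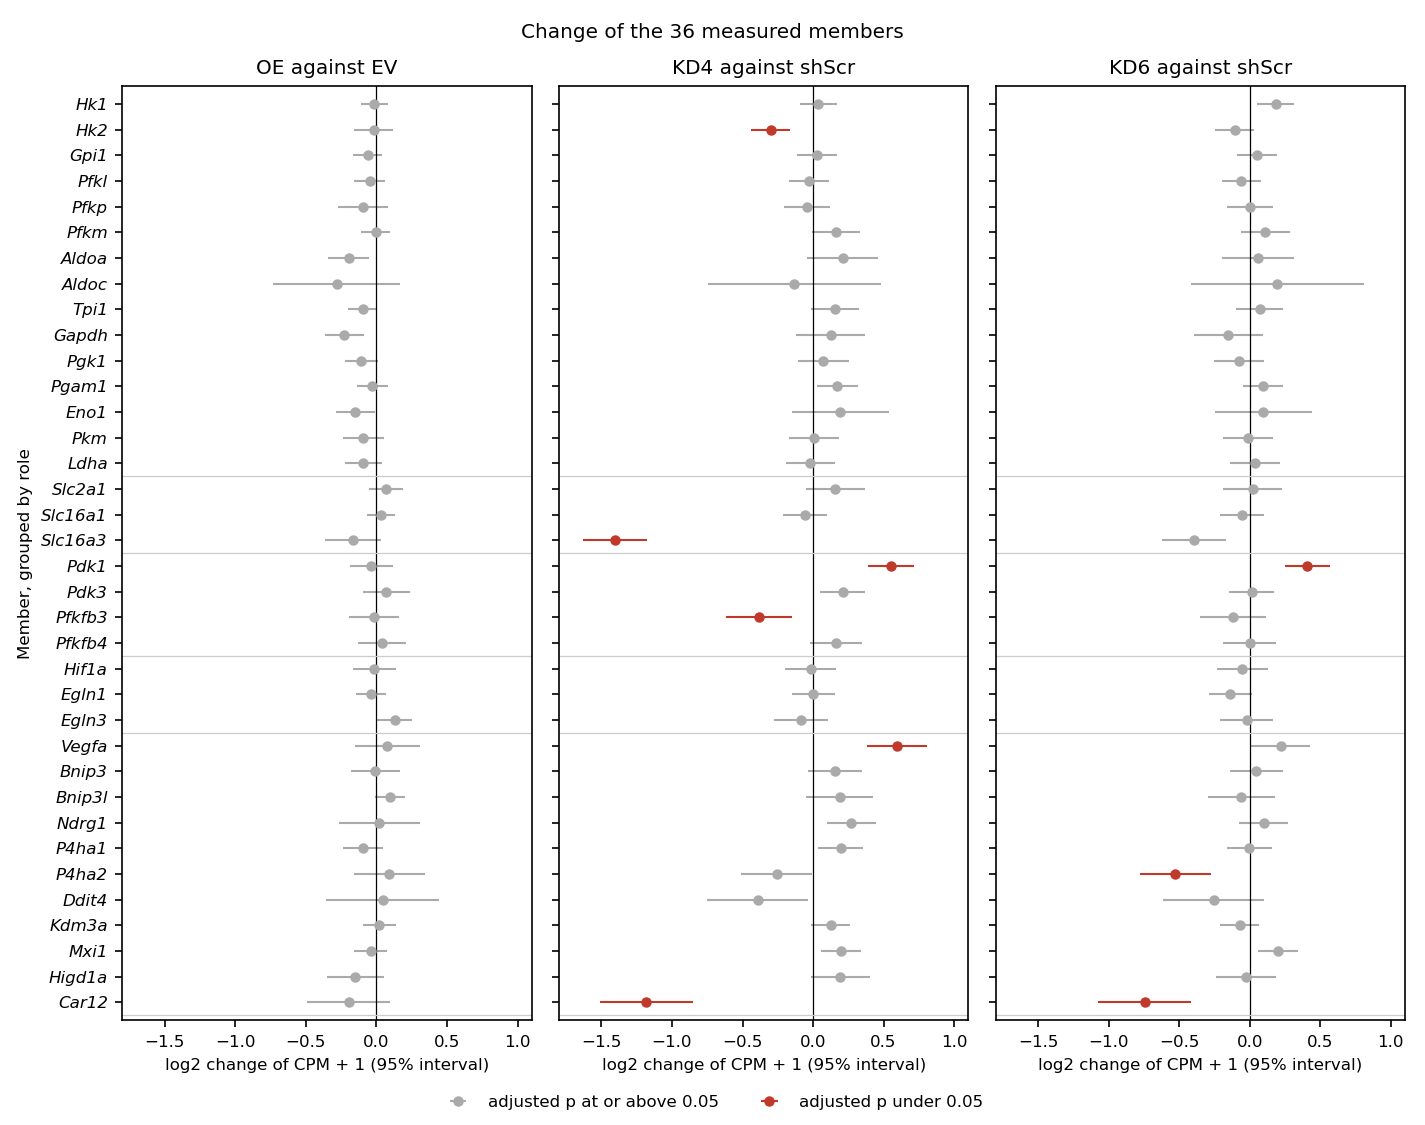
Log2 change of CPM + 1 with its 95% interval for the 36 measured members (rows, grouped by role and separated by grey lines) in OE against EV, KD4 against shScr and KD6 against shScr. Red marks an adjusted p under 0.05: none in OE, 6 members in KD4 and 3 in KD6, with Slc16a3 and Car12 lowest in KD4 at -1.40 and -1.18.

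The promoters of the members were searched for ACGTG and GCGTG on both strands, in windows of 250 bases before to 50 bases after each RefSeq start (GRCm38.p6). ACGTG also lies inside CACGTG, the E-box, and is then found on both strands. Entries were found for 34 of the 36 measured members, with 52 windows, and 40 windows (76.9%) held at least 1 match, against 43.8% of the 32851 windows of all genes. The members were chosen partly because they are known to answer to HIF, so this share describes the choice. The members called in a hairpin line, and Ldha as a member that was not called, are shown with matches in capitals, on the strand of the gene.
Slc16a3 (chr11:120949034-120949063, plus strand): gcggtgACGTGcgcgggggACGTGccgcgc
Pdk1 (chr2:71873140-71873169, plus strand): acatggGCGTGtctttaaccaggggcggtg
Vegfa, the second listed start (chr17:46025358-46025387, minus strand): tggagtGCGTGccCACGTcagagagcaaca
P4ha2 (chr11:54100840-54100869, plus strand): tcgcatACGTGcagcGCGTGgcggctcggg
Hk2 (chr6:82774483-82774512, minus strand): cacatcCACGTcactgtccggggcggccca
Pfkfb3 (chr2:11553966-11553995, minus strand): gccgtgACGTGccaagctgtgaccaaatat
Ldha (chr7:46845750-46845779, plus strand): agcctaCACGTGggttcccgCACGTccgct
The single window of Car12 held neither motif. Slc16a3 has a pair of ACGTG matches just before its start, and P4ha2 and Vegfa each have a match of both motifs within 30 bases. Members with a match therefore include 3 that fell in KD4 (Slc16a3, Hk2 and Pfkfb3), P4ha2, which fell in KD6, Vegfa, which rose in KD4, Pdk1, which rose in both hairpin lines, and Ldha, whose level was not called in any comparison. Counted by gene, 31 of the 34 members with an entry (91.2%) had a match, against 46.7% of all genes with an entry. A match is thus not particular to the called members.

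Lactate leaves the cell through monocarboxylate transporters, and the one most used by glycolytic cells, Slc16a3 (MCT4), had the largest log2 change of the members in KD4. Slc16a3 was 10.7, 12.3 and 9.79 CPM in KD4, 21.8, 21.9 and 25 CPM in KD6, and 27.4, 32.1 and 31.8 CPM in shScr. In these gene values all 3 KD4 libraries lay far below every other hairpin library, and KD6 lay below shScr without touching it. Slc16a3 fell in KD4 to 0.358 of the shScr mean (log2 change -1.40, SE 0.10, adjusted p = 7.77e-05). On gene values that call held in every alternative and without any single library (adjusted p at most 0.000915). In KD6 the level was 0.752 of shScr (log2 change -0.39, adjusted p = 0.0735), which did not pass. KD6 stood 2.10-fold above KD4 (log2 change 1.01, 95% interval 0.78 to 1.23, adjusted p = 0.000637), where 4.91% of all genes were called, and Slc16a3 was the 1 member called between the hairpin lines. With KD4 and KD6 as 1 group, the spread between them left Slc16a3 at adjusted p = 0.116 (log2 change -0.90, SE 0.27). In OE it was 16.4, 14.3 and 15.6 CPM, and in EV 19.3, 16.3 and 16.6 CPM (log2 change -0.16, interval -0.36 to 0.03). All of these are gene values. Summed over its listed transcripts, Slc16a3 had means of 11.1 CPM in KD4, 20.9 CPM in KD6 and 22.4 CPM in shScr. The size of the fall in KD4 and the gap of KD6 from shScr therefore depend on which values are used. Neither hairpin line was tested on the sums.

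The other transporters were not called in any comparison. Slc2a1 (GLUT1), which brings glucose in, ranged from 185 to 243 CPM over the 15 libraries, and Slc16a1 (MCT1), which carries lactate in either direction, from 241 to 286 CPM. In KD4 against shScr the intervals of the log2 change reached from -0.05 to 0.36 for Slc2a1 and from -0.21 to 0.10 for Slc16a1.

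Among the regulatory enzymes, Pdk1 was the member that differed in both hairpin lines. Pdk1 was 49.2, 53.9 and 49.7 CPM in KD4, 43.7, 47.6 and 46.6 CPM in KD6, and 35.9, 35.5 and 31.8 CPM in shScr, so that every KD library lay above every shScr library. It rose 1.41-fold in KD (48.5 ± 3.42 against 34.4 ± 2.25 CPM, SD, n = 6 and 3, log2 change 0.48, SE 0.07, adjusted p = 0.00664), 1.48-fold in KD4 (log2 change 0.55, adjusted p = 0.0013) and 1.34-fold in KD6 (log2 change 0.41, adjusted p = 0.0154). The KD call ended without shScr replicate 3 (adjusted p = 0.0519), and the KD6 call ended without KD6 replicate 2 (0.0797), shScr replicate 2 (0.0512) or shScr replicate 3 (0.0642). In OE Pdk1 was 46.7, 45.1 and 48.4 CPM, and in EV 49.9, 43.7 and 50.5 CPM, which overlap (log2 change -0.04). In transcript sums, which hold all 15 libraries in 1 table, the effect of OE minus the effect of KD was -0.48 for Pdk1 (SE 0.09, adjusted p = 0.0214), where 1.9% of genes were called, and it was the 1 member called. That call ended without any of OE replicates 1 and 2 (0.0673 and 0.0621), EV replicates 1 and 3 (0.0609 and 0.0664) or shScr replicate 3 (0.0565), and without EV replicate 1 the member called was P4ha2 (0.78, adjusted p = 0.0151).

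Pfkfb3, which makes the activator of phosphofructokinase, was 44.4, 34.8 and 38.9 CPM in KD4, 41.5, 47.6 and 53.7 CPM in KD6, and 53.2, 51.2 and 49.9 CPM in shScr. KD4 lay wholly below shScr, and KD6 spanned it. Pfkfb3 fell in KD4 (log2 change -0.38, SE 0.11, adjusted p = 0.0464), close to the threshold, and was not called with quantile normalization (0.0537), with median-of-ratios scaling (0.0547), without the limma trend (0.0633) or without KD4 replicate 2 or 3 (0.161 and 0.0987) or shScr replicate 1, 2 or 3 (0.141, 0.123 and 0.0917). Pdk3, a second pyruvate dehydrogenase kinase, was 22.1, 20.3 and 21.1 CPM in KD4 against 19.0, 17.8 and 17.6 CPM in shScr (log2 change 0.21, adjusted p = 0.0986). The related bifunctional enzyme Pfkfb4 ranged from 13.6 to 19.1 CPM over all libraries and was not called.

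Of the 15 enzymes of glycolysis, 1 was called in a hairpin line and none in OE. That 1 call was in KD4 against shScr, where 9.58% of all genes were called. Hk2, the inducible hexokinase that traps glucose as its phosphate, was 282, 288 and 288 CPM in KD4, 310, 326 and 348 CPM in KD6, and 343, 350 and 366 CPM in shScr. KD4 lay below every library of the other hairpin lines, and KD6 overlapped shScr. Hk2 fell in KD4 to 0.811 of the shScr mean (log2 change -0.30, SE 0.06, adjusted p = 0.015), and this call ended without KD4 replicate 2 (0.0536), shScr replicate 2 (0.0558) or shScr replicate 3 (0.0565). Hk1, the constitutive hexokinase, was 491, 505 and 478 CPM in KD6 against 437, 419 and 440 CPM in shScr, a difference that did not pass (log2 change 0.19, adjusted p = 0.144). The median log2 change of the 15 enzymes was 0.04 in KD4 against shScr and 0.05 in KD6 against shScr.

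In OE against EV, all 15 enzymes had a lower mean in OE, by a median log2 change of -0.09, and none was called. The smallest p belonged to Gapdh, the glyceraldehyde 3-phosphate dehydrogenase, with 421, 452 and 482 CPM in OE against 542, 503 and 543 CPM in EV, a log2 change of -0.23 (SE 0.06, adjusted p = 0.240). Aldoa, the aldolase that splits fructose bisphosphate, was 841, 866 and 898 CPM in OE against 1081, 942 and 968 CPM in EV (log2 change -0.20, adjusted p = 0.297). For both genes the groups did not overlap. Eno1, which makes phosphoenolpyruvate, was 332, 315 and 311 CPM in OE against 379, 328 and 358 CPM in EV (log2 change -0.15, adjusted p = 0.356), and here they did. EV replicate 1 stood high, with 14 of the 15 enzymes above the mean of its line, and without it 13 enzymes had a lower mean in OE, with a median of -0.05. With quantile normalization 12 did, with a median of -0.07.

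The enzymes also moved together between passages of 1 line, by about as much as between lines. The median difference of the 15 enzymes from the mean of their line was 0.10 on the log2 scale in KD6 replicate 1 (12 enzymes above that mean) and -0.05 in KD6 replicate 3 (2 above). In shScr it was -0.08 in replicate 1 (2 above) and 0.08 in replicate 2 (13 above). Eno1 shows the width of this, at 439, 353 and 306 CPM in KD6 and 276, 398 and 353 CPM in shScr. Over all genes the same medians lay between -0.02 and 0.02. Several of these enzymes have near-identical processed copies in the genome, among them Gapdh, Pgk1, Tpi1 and Eno1, so how the counting shared out such reads can enter their values.

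**Figure D2:**
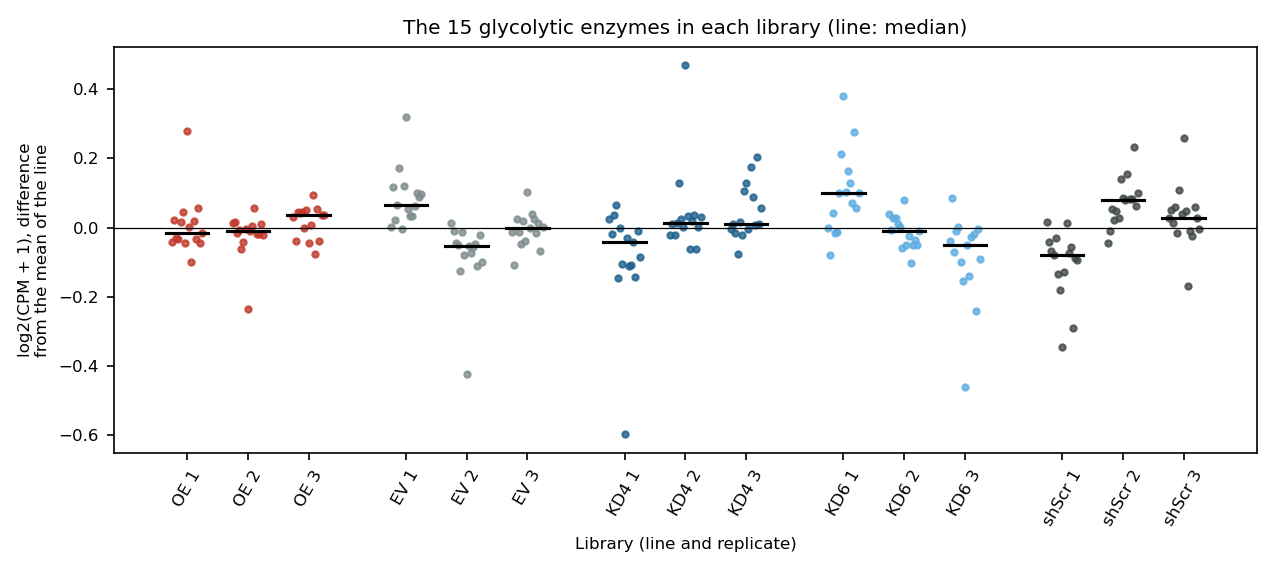
Each point is 1 of the 15 glycolytic enzymes in 1 library, as its log2(CPM + 1) minus the mean of its line (3 libraries), with the median as a black line. The enzymes stand together above the line mean in EV replicate 1, KD6 replicate 1 and shScr replicate 2, and below it in EV replicate 2, KD6 replicate 3 and shScr replicate 1.

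None of the oxygen sensing genes was called in any comparison. Hif1a, the oxygen-labile HIF subunit, was 178, 203 and 211 CPM in KD4, 180, 190 and 206 CPM in KD6, and 207, 203 and 188 CPM in shScr, and the interval of its log2 change in KD4 was -0.20 to 0.16. HIF is set mainly by stability of the protein, which mRNA does not show. Egln1 (PHD2), the main hydroxylase that marks HIF, ranged from 45.7 to 58.6 CPM, and Egln3 (PHD3), a hydroxylase that is itself a HIF target, from 58.1 to 79.7 CPM. Egln3 was 72.5, 79.7 and 73.7 CPM in OE against 65.7, 70.3 and 70.0 CPM in EV, which did not overlap and did not pass (log2 change 0.13, adjusted p = 0.368).

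Of the 11 measured targets of the hypoxia response, 3 were called in a hairpin line, and not all moved the same way. In KD4 against shScr 2 of the 11 were called, where 9.58% of all genes were. In KD6 against shScr 2 were called, where 2.91% of all genes were. Car12, a carbonic anhydrase of the cell surface that handles acid, was 15.5, 12.8 and 10.2 CPM in KD4, 14.8, 20.3 and 17.8 CPM in KD6, and 28.1, 33.6 and 28.4 CPM in shScr. Every KD library lay below every shScr library. Car12 fell to 0.506 of the shScr mean in KD (log2 change -0.96, SE 0.17, adjusted p = 0.0138), to 0.427 in KD4 (log2 change -1.18, adjusted p = 0.00101) and to 0.586 in KD6 (log2 change -0.75, adjusted p = 0.0267). The KD4 call held without any single library, the KD call ended without shScr replicate 1, 2 or 3 (0.0592, 0.0893 and 0.0584), and the KD6 call ended without KD6 replicate 1 or 3 (0.0979 and 0.0636) or shScr replicate 1, 2 or 3 (0.0656, 0.113 and 0.0698). In OE and EV, grown in another drug, Car12 was 51.3, 49.7 and 64.6 CPM in OE against 69.1, 52.7 and 68.7 CPM in EV, which overlap (log2 change -0.20, adjusted p = 0.547).

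Vegfa, the growth factor that draws blood vessels, was 34.8, 39.4 and 37.5 CPM in KD4, 25.2, 28.7 and 31.8 CPM in KD6, and 22.6, 26.1 and 24.2 CPM in shScr. KD4 lay above both other lines, and KD6 overlapped shScr. Vegfa rose 1.53-fold in KD4 (log2 change 0.59, SE 0.10, adjusted p = 0.00383), a call that held without any single library, and stood at log2 change 0.22 in KD6 (adjusted p = 0.311). The difference of KD6 from KD4 was -0.38 (adjusted p = 0.0506), just short of the threshold, and it passed with a minimum mean of 5 CPM (0.0474) or without KD6 replicate 3 (0.0402). So, within KD4, Vegfa and Pdk1 rose while Slc16a3, Car12, Hk2 and Pfkfb3 fell, with the call of Pfkfb3 close to the threshold. All 6 are commonly listed as hypoxia genes, and the cause of their directions was not tested.

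P4ha2, a subunit of the collagen prolyl hydroxylase, was 13.1, 16.4 and 17.6 CPM in KD6, 21.2, 17.0 and 18.9 CPM in KD4, and 23.8, 22.0 and 22.8 CPM in shScr. Both hairpin lines lay below shScr and overlapped each other. P4ha2 fell in KD6 (log2 change -0.53, SE 0.11, adjusted p = 0.0357), and the value in KD4 was -0.26 (adjusted p = 0.193). The KD6 call ended with quantile normalization (0.0529), without KD6 replicate 1 or 2 (0.107 and 0.0921) and without shScr replicate 1, 2 or 3 (0.127, 0.104 and 0.103). Its partner subunit P4ha1 was 129, 142 and 151 CPM in KD4 against 123, 125 and 119 CPM in shScr, on the other side (log2 change 0.20, adjusted p = 0.127).

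The remaining 8 targets were not called in any comparison. Mxi1, a repressor that opposes Myc, was 52.5, 52.6 and 50.6 CPM in KD4 and 50.1, 53.4 and 53.0 CPM in KD6, all above the 43.7, 44.2 and 47.8 CPM in shScr (KD log2 change 0.20, adjusted p = 0.1003). Ndrg1, a stress gene, was 135, 138 and 144 CPM in KD4 against 122, 101.4 and 122 CPM in shScr (log2 change 0.27, adjusted p = 0.0535), and was called with quantile normalization (adjusted p = 0.0486). Ddit4, an inhibitor of mTOR complex signaling, varied most among them, from 31.7 CPM in KD4 replicate 1 to 77.0 CPM in EV replicate 1. The mitophagy receptors Bnip3 and Bnip3l ranged from 41.5 to 56.4 CPM and from 95.4 to 146 CPM. Kdm3a, a histone demethylase, ranged from 73.4 to 91.9 CPM, and Higd1a, a small mitochondrial protein, from 10.6 to 15.4 CPM.

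**Figure D3:**
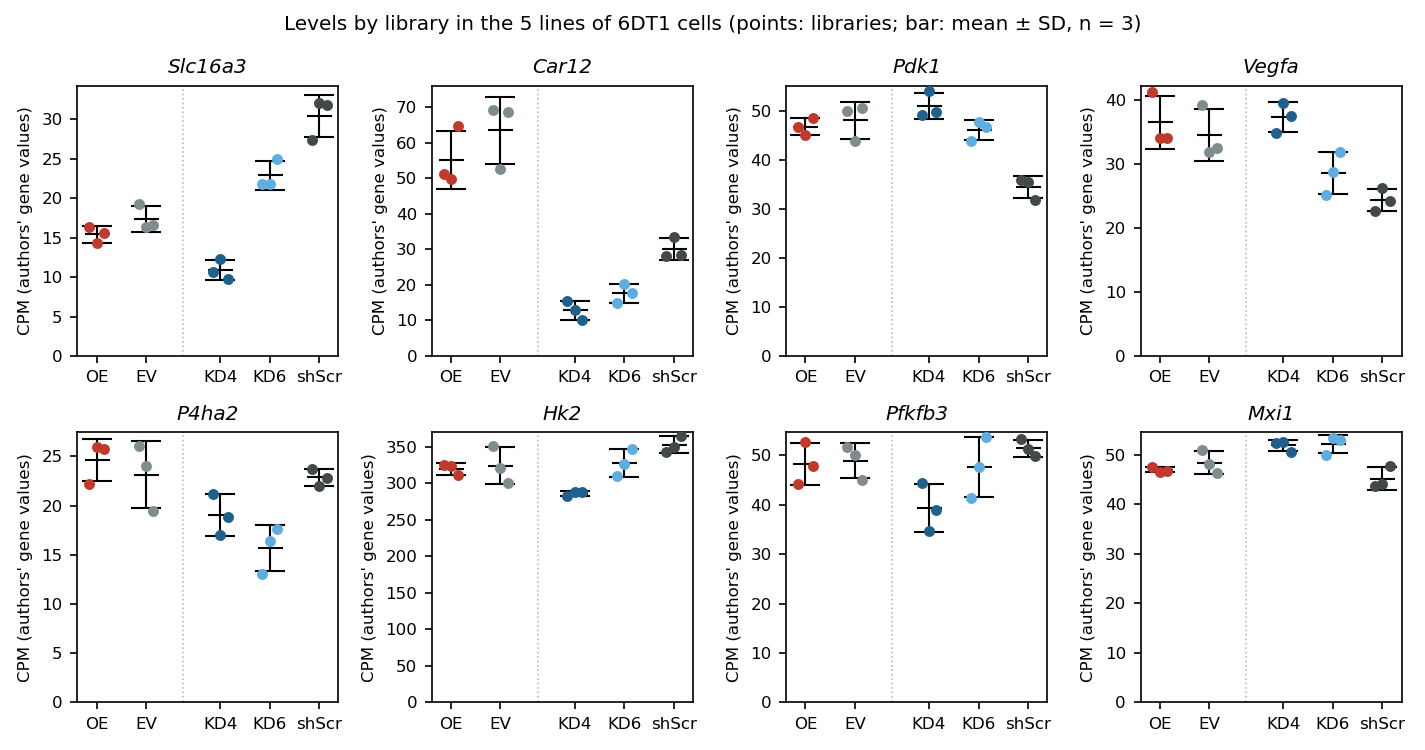
CPM per library (points) with mean ± SD (bars, n = 3) of 8 members in OE and EV, left of the dotted line, and KD4, KD6 and shScr, right of it. The sides come from separate tables. Slc16a3 and Car12 are lowest in KD4 at 10.9 and 12.8 CPM, Pdk1 and Vegfa are lowest in shScr at 34.4 and 24.3 CPM, and Mxi1 was not called.

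Because shScr is the control of both hairpin lines, it was also set beside EV, the other control. This used transcript sums, which need not equal the gene values: the sum was 114% of the gene value for Slc16a3 in EV and 73.7% in shScr. EV and shScr differ in drug and vector, so their difference cannot be told apart from these. In EV against shScr 6 members were called, all higher in EV, where 15.8% of all genes were called and 9.4% were called as higher. The share of mitochondrial transcripts in the listed CPM was 5.93% to 6.49% in EV and 4.66% to 5.90% in shScr, and Cd68, the 1 immune marker listed of 5, was 62.0 to 63.5 CPM in EV and 32.3 to 38.7 CPM in shScr in the separate gene tables. Both move with this comparison without overlap, and their part in it was not tested. Pdk1 was 48.3, 41.5 and 47.9 CPM in EV against 34.3, 34.0 and 30.6 CPM in shScr (log2 change 0.46, adjusted p = 0.00103), and Vegfa was 36.9, 28.4 and 31.8 CPM in EV against 18.8, 23.8 and 21.7 CPM in shScr (log2 change 0.57, adjusted p = 0.0107). For both genes EV therefore stood above shScr, on the same side as KD4. Car12 was 63.0, 50.4 and 72.4 CPM in EV against 24.4, 28.5 and 28.1 CPM in shScr (log2 change 1.16, adjusted p = 0.00113), so that the order of the lines was EV, shScr, then the hairpin lines. Smarcd1 itself was 29.4 ± 2.74 CPM in EV and 15.3 ± 1.55 CPM in shScr in the same table (log2 change 0.90, adjusted p = 7.48e-05).

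The other 3 calls were the enzymes Gpi1, Gapdh and Hk1 (log2 changes 0.23, 0.52 and 0.34, adjusted p = 0.0201, 0.0221 and 0.0296). The transcript sum of Hk1 was 454.9 CPM in EV and 361 CPM in shScr, or 100.3% of the gene value in EV and 83.5% in shScr, and the gene values were nearer each other, at 454 CPM in EV and 432 CPM in shScr. The sum of Gapdh was 113% of the gene value in EV and 95.5% in shScr, with gene values of 529 CPM in EV and 436 CPM in shScr. The gene values come from separate tables and were not tested against each other, and the size of both differences depends on which values are used. In all, 14 of the 15 enzymes had a higher mean in EV, with a median of 0.12, and 10 did with quantile normalization. Without EV replicate 1 the calls of Gpi1, Gapdh, Hk1 and Vegfa ended (0.0596, 0.0938, 0.113 and 0.0533), and without shScr replicate 1 they ended too (0.0789, 0.0592, 0.122 and 0.0524). Without EV replicate 3 those of Gpi1, Gapdh and Hk1 ended (0.0750, 0.0709 and 0.0583), and without shScr replicate 3 those of Gapdh and Hk1 (0.0810 and 0.0619). With quantile normalization Gpi1 was not called (0.0720), and Pdk3 and Pfkfb4 were, both lower in EV (0.0437 and 0.0478). Slc16a3 was called as lower in EV without EV replicate 1 (log2 change -0.78, adjusted p = 0.0169). For Gapdh the transcripts ENSMUST00000073605 and ENSMUST00000117757 were 132 and 145 CPM in EV replicate 1 and 23.1 and 24.1 CPM in EV replicate 2, against 6.90 and 8.54 CPM in shScr replicate 2 and 6.81 and 7.36 CPM in shScr replicate 3, so that they moved in step. ENSMUST00000147954, the most abundant Gapdh transcript, was 328 CPM in EV replicate 1 and 382 CPM in EV replicate 2.

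Of 44 further glycolysis genes and 53 further hypoxia genes, 28 and 40 were measured in the hairpin lines. In KD against shScr, where 2.66% of all genes were called, 1 of 28 fell, Tigar, a phosphatase that lowers the activator of phosphofructokinase (20.6 against 28.6 CPM, log2 change -0.45, adjusted p = 0.0181), and 1 of 40 rose, Arnt, the partner of HIF alpha (59.9 against 47.8 CPM, log2 change 0.32, adjusted p = 0.0391). In KD4 against shScr 4 of 28 were called (2 higher, 2 lower) and 3 of 40 (2 higher, 1 lower), where 9.58% of all genes were. In KD6 against shScr 3 of 28 were called (2 higher, 1 lower) and 2 of 40 (both higher), where 2.91% of all genes were. Ldhd, the D-lactate dehydrogenase, was 6.39 CPM in KD6 and 2.98 CPM in shScr (log2 change 0.89, adjusted p = 0.0092). In KD6 against KD4 1 of 28 and 3 of 40 were called, where 4.91% of all genes were. Of these, Angptl4, a secreted HIF target, was 14.7 CPM in KD6 and 35.3 CPM in KD4 (log2 change -1.18, adjusted p = 0.0145). In EV against shScr 6 of 27 (4 higher, 2 lower) and 7 of 40 (4 higher, 3 lower) were called, where 15.8% of all genes were. In OE against EV 0 of 29 and 0 of 41 were called, with 3 and 4 at an unadjusted p under 0.05.

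At the level of transcripts, 117 transcripts of the 36 members were listed, and 0 were called in OE against EV (0% of all 30220) or in KD against shScr (0.295%), with 15 and 18 at an unadjusted p under 0.05, as were 9.65% and 12% of all transcripts. For the share of transcripts within a gene, tested with diffSplice in 29 members with at least 2 transcripts, 1 was called in OE against EV (1.37% of 7077 genes) and 0 in KD against shScr (1.29%). On simulated data diffSplice also called many unchanged genes, so the call is given as a value only. It was Hk1 (adjusted p = 0.0497), where the minor transcript ENSMUST00000130422 was 6.22, 8.52 and 9.25 CPM in OE against 3.18, 3.36 and 4.30 CPM in EV. It was not called without OE replicate 1, 2 or 3, or EV replicate 2 or 3 (Pfkm was called without the last), and an F test called Ldha in its place. Without KD6 replicate 3, 2 members (Pkm and Mxi1) were called in KD against shScr.

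Pkm, the pyruvate kinase, can use either of a pair of exons that exclude each other, giving M2, the form of proliferating and tumor cells, or M1, the form of muscle and brain. The first 30 bases of the stretch in which these transcripts differ are shown, with differing bases in capitals (gencode vM1, chromosome 9).
M2, ENSMUST00000034834: TgcCcgAgaggcAgaggcTgccatCtAcca
M1, ENSMUST00000163694: AgcTcgGgaggcTgaggcAgccatGtTcca
The transcripts are 2192 and 2221 bases long, so that their CPM can be set side by side. M2 was the main form in every library, and M1 took 4.26%, 4.22% and 5.68% of both in OE against 4.02%, 5.63% and 3.58% in EV. It took 5.47%, 6.45% and 4.25% in KD4, 4.36%, 5.83% and 12.3% in KD6, and 12.7%, 6.00% and 4.90% in shScr. KD6 replicate 3 and shScr replicate 1 thus held more M1 than the other 13 libraries, at 262 and 259 CPM, and were also the libraries lowest in M2, at 1867 and 1781 CPM. They are also the libraries of their lines in which most enzymes stood below the mean. The lines overlap, and neither transcript was called in KD against shScr (adjusted p = 0.840 for M2 and 0.805 for M1).

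**Figure D4:**
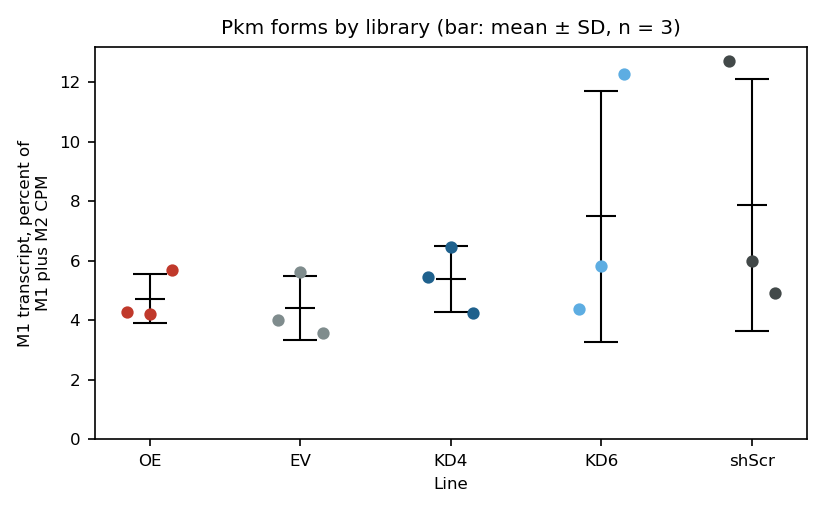
Share of the M1 transcript in the summed CPM of the M1 and M2 transcripts of Pkm, as a percent, per library (points) with mean ± SD (bars, n = 3) for OE, EV, KD4, KD6 and shScr. Apart from 1 library each of KD6 (12.3%) and shScr (12.7%), all libraries lie between 3.58% and 6.45%.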

How the data were processed

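Messenger RNA of 15 libraries was analysed. The deposited values were CPM calculated by the authors, in a gene table for OE and EV, a gene table for KD and shScr and a transcript table of all lines. Per the labels reads were aligned with STAR 2.7.8a to mm39, whereas the published methods give Tophat and an earlier build, so the path is not settled and no coordinate was taken from the files. Features under a geometric mean of 1 CPM had no row. A further 15 per-library columns of the transcript table, which match no label, were not used.

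The members and the gene lists were chosen with earlier results of these data known. Members called in a comparison were named, or otherwise those with the smallest p. Fits used limma 3.58.1 (R 4.3.3) with a trend and a pseudocount of 1 CPM, and Benjamini-Hochberg adjustment over all features. KD4, KD6 and shScr were fitted together for each hairpin line, and transcript sums served comparisons across tables. Tests were run on simulated data first. Alternatives were a pseudocount of 0.1, quantile normalization, median-of-ratios scaling, a mean of at least 5 CPM, no trend, a replicate block, F tests of transcript share, the mean of the hairpins and fits without 1 library each.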

Additional observations from a re-analysis of the deposited data

Results flagged for a closer look

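The difference between the hairpin lines in Slc16a3 was marked because KD6 and KD4, set against the same shScr libraries, differed by a test of the difference itself (log2 change 1.01 for KD6 against KD4, adjusted p = 0.000637, higher in 3 of 3 KD6 libraries). Pdk1 was marked because the effect of OE and the effect of KD differed in 1 fit of all 5 lines (log2 -0.48, adjusted p = 0.0214 in limma). This Pdk1 call ended with the replicate block and without any of several single libraries. Pdk1 in OE overlapped EV, so the contrast largely restates the difference of KD from shScr.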

How the results depend on the processing

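Depth is unknown, so no level was given a counting limit. Leaving out 1 library at a time, the count of called members stayed at 0 in OE against EV and ranged from 0 to 2 in KD against shScr (2 with all libraries), 4 to 6 in KD4 against shScr (6), 0 to 2 in KD6 against shScr (3), 1 to 2 in KD6 against KD4 (1), 2 to 7 in EV against shScr (6) and 0 to 1 in the effect of OE against that of KD (1). Transcripts of members stayed at 0 calls in both comparisons, and members with a changed transcript share ranged from 0 to 1 in OE against EV and from 0 to 2 in KD against shScr. The mean of the hairpin lines in a fit of 3 groups called 5 members in KD against shScr and 847 genes in place of 364. A minimum of 5 CPM gave 2 members in KD6 against KD4.

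Replicate numbers did not pair the libraries (correlations of deviations from -0.33 to 0.26). The replicate block called 0 members in KD6 against shScr, 0 in the effect of OE against that of KD and 0 with a changed share in OE against EV, and 114 genes in KD against shScr. It called 4 members in KD4 against shScr, without Hk2 (adjusted p = 0.0543) and Pfkfb3 (0.112), and 4 in EV against shScr, without Gpi1 (0.0595) and Hk1 (0.0658). Where the count of all genes called in a setting is not given, a change in the count of members is not read as particular to them. Of 281 values of named members, none changed direction and 56 lost their call. The 281 include the members named in OE against EV, which were not called and so had no call to lose.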
